A study of Mus musculus with 6 samples.

Results

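Arginine is taken up by cationic amino acid transporters and then competed for by enzymes with different products. Nitric oxide synthase turns it into nitric oxide and citrulline, which the enzymes argininosuccinate synthase and argininosuccinate lyase can rebuild into arginine. Arginases split it into urea and ornithine, from which ornithine decarboxylase and spermidine synthase make polyamines. Myeloid-derived suppressor cells (MDSCs) are immature cells of the myeloid line that can hold back T cells, and removal of arginine and release of nitric oxide are among their best known means of doing so.

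The genes described here are 10 members of this route, chosen by name with earlier results of these data known. They are the transporters Slc7a1 and Slc7a2, the recycling enzymes Ass1 and Asl, the consumers Nos2, Arg1 and Arg2, and the polyamine genes Odc1, Srm and Sat1. Of these, 9 had a probe set annotated with their symbol alone, among 19938 genes that did, and all 9 were bright enough to be tested. Both probe sets of Ass1 also carry the pseudogene Gm5424, so Ass1 was not analysed here. For each gene the probe set with the highest mean was used, and both probe sets of Odc1 are given.

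Expression was read on 1 array per mouse in spleen cells labelled as MDSCs, which were collected with CD11b beads 10 days after an allogeneic bone marrow transplantation. All recipients were lethally irradiated B6D2F1 mice (strain B6D2F1/J in the labels), and all received T cell depleted marrow of B6 mice. A first group of 3 mice was injected with PBS, and a second group of 3 with 1.5 mg/kg rapamycin, an inhibitor of the growth kinase mTOR, every 2 days until collection. Some grafts of the study also held B6 spleen cells, and the labels do not say which, nor do they give the age of the mice. The label MDSC rests on the bead sort and was not tested by function. Values are log2 expression values as deposited, so that a difference of 1 is a 2-fold difference.

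Itgam, which encodes CD11b, stood at 12.39 ± 0.08 with PBS and 12.27 ± 0.04 with rapamycin (log2 level, mean ± SD, n = 3 each). Of 6 markers of sorted myeloid cells, Itgam among them, 1 passed the test described below: Cd33 rose (log2 change 0.18). The list levels of these markers ran from 12.55 to 12.63 with PBS and from 12.58 to 12.64 with rapamycin. Of 10 neutrophil markers 0 passed the test described below, and their mean level over the list ran from 12.06 to 12.10 with PBS and from 11.95 to 12.05 with rapamycin. Of 13 macrophage markers 1 rose and 2 fell, with list levels of 8.02 to 8.36 with PBS and 8.24 to 8.42 with rapamycin. These levels average over opposite moves: Cd68 rose (log2 change 0.83), while Mrc1 (-1.04) and Slc40a1 (-0.38) fell. Of 8 monocyte markers tested 1 rose (Ms4a6c, 0.38) and 2 fell (Ccr2, -0.34, and Ace, -0.57). The monocyte list levels were 8.97 to 9.05 with PBS and 8.81 to 8.96 with rapamycin. Markers of other cells were also read, and their counts stand beside the 11.3% of all genes that were called. Of 8 T cell markers tested 3 fell (list levels 5.67 to 5.75 with PBS and 5.40 to 5.51 with rapamycin), and of 6 erythroid markers tested 1 rose (5.57 to 5.60 and 5.70 to 5.80). Of 4 basophil and mast cell markers tested 0 were called, at list levels of 6.02 to 6.17 with PBS and 5.59 to 5.99 with rapamycin. Of 2 B cell markers tested 1 fell (5.73 to 5.86 and 5.52 to 5.65). Of the 5 dendritic cell, 2 eosinophil and 2 NK cell markers tested 0 were called. Of these lists, Cd3d, Ms4a1, Pax5, Cd79a, Ncr1 and Epx lay below the brightness threshold of 4.72. Other members of the same lists lay above it, among them Cd3e (6.45 with PBS), Cd3g (5.43), Cd8a (5.48), Cd79b (6.36), Prf1 (6.24) and Siglecf (7.12). The part of these marker differences in the results below was not tested, and in such bulk samples fewer cells of a type and less RNA per cell cannot be told apart.

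The comparison of rapamycin with PBS asked which steps of arginine use differed in these cells under mTOR inhibition. Slc7a2, Nos2 and Odc1 rose, by 1.62-fold, 1.50-fold and 1.28-fold, whereas Slc7a1, Asl, Arg1, Arg2, Srm and Sat1 did not pass the test. The rise of Odc1 was seen on 1 of its 2 probe sets only, and whether that one reads the Odc1 locus was not tested. Calls were made at an adjusted p under 0.05 in a limma fit of 13965 genes. Of the 9 members 3 were called higher and 0 lower, where 4.42% of all genes tested were called higher, 6.92% lower and 11.3% in either direction. With the array medians aligned, the lower genes made up 50.7% of all calls in place of 61.0%, and the same 3 members were called. In 3 of the 9 members the 3 rapamycin values all lay above the 3 PBS values, and in 0 they all lay below. Over all genes the 2 groups did not overlap in 32%, with rapamycin higher in 12.6% and lower in 19.4%. The median log2 change of the 9 members was 0.09, beside -0.017 over all genes tested. These shares describe 9 genes picked by name, with earlier results of these data known, and are no test of the route as a whole.

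**Figure D1:**
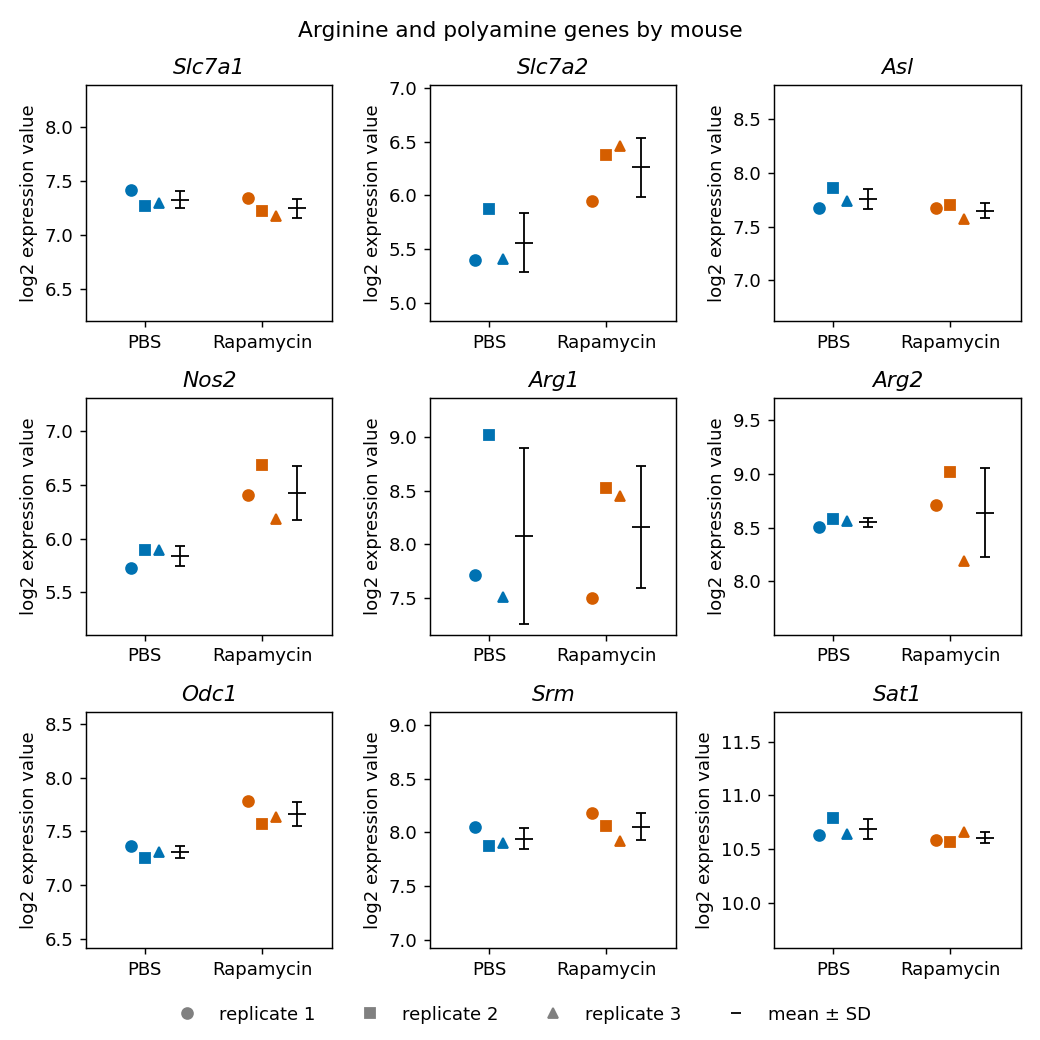
Log2 expression value (vertical axis, the same span in each panel) of the 9 measured genes in each mouse, with PBS on the left in blue and rapamycin on the right in orange, symbols for the replicate number and bars for the mean ± SD (n = 3). Rapamycin values lie above all PBS values for Slc7a2, Nos2 and Odc1, and Arg1 ranges from 7.51 to 9.01 within the PBS group alone.

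Of the 2 transporters, Slc7a2 rose and Slc7a1 was not called. Slc7a2 encodes CAT2, the inducible cationic amino acid transporter that in mouse macrophages supplies arginine for nitric oxide synthesis. Its log2 level (probe set 10571444) was 5.40, 5.88 and 5.41 in PBS replicates 1 to 3 and 5.95, 6.37 and 6.46 in rapamycin replicates 1 to 3. The groups did not overlap, but PBS replicate 2 and rapamycin replicate 1 lay within 0.1 of each other. The difference was 0.70 ± 0.17 (log2 change ± SE, limma adjusted p 0.0418), with a 95% confidence interval of 1.23-fold to 2.14-fold, and ranked 85 among the rises of 13965 genes. In the fit of all 21789 probe sets with 1 symbol it did not pass (limma adjusted p 0.0616), whereas Nos2 did (0.0398). Slc7a2 lost its call when any 1 array was left out. With PBS replicates 1, 2 or 3 left out the limma adjusted p was 0.136, 0.0624 and 0.139, and with rapamycin replicates 1, 2 or 3 left out it was 0.0569, 0.119 and 0.108, at log2 changes of 0.60 to 0.86.

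Slc7a1 encodes CAT1, the transporter that most cell types carry at all times. Its log2 level was 7.41, 7.27 and 7.29 with PBS and 7.34, 7.22 and 7.17 with rapamycin, so the groups overlapped. Its log2 change was -0.08 ± 0.06 (SE, limma adjusted p 0.457), and the 95% confidence interval of the ratio of rapamycin to PBS ran from 0.853 to 1.05.

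Nos2, the inducible nitric oxide synthase, which makes nitric oxide in activated myeloid cells, was higher in each rapamycin mouse than in any PBS mouse. Its log2 level (probe set 10379228) was 5.73, 5.89 and 5.89 with PBS and 6.41, 6.68 and 6.18 with rapamycin. The PBS mice lay close together (SD 0.09) and the rapamycin mice further apart (SD 0.25), with replicate 2 highest. The log2 change was 0.59 ± 0.12 (SE, limma adjusted p 0.0272), with a 95% confidence interval of 1.24-fold to 1.83-fold, and it ranked 133 among the rises. The call held with rapamycin replicate 2 or 3 left out. It was lost when rapamycin replicate 1 (limma adjusted p 0.106) or PBS replicates 1, 2 or 3 (0.0943, 0.0966 and 0.0830) were left out.

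Asl, argininosuccinate lyase, which completes the rebuilding of arginine from citrulline, was not called. Its log2 level was 7.68, 7.86 and 7.74 with PBS and 7.68, 7.70 and 7.57 with rapamycin, at a log2 change of -0.11 ± 0.06 (SE, limma adjusted p 0.305). The groups overlapped, and the 95% confidence interval of the ratio ran from 0.836 to 1.03.

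The 2 arginases were not called, and both were uneven between mice in a way that the mean hides. Arg1, the cytosolic arginase that marks alternatively activated macrophages and many suppressor cells, had log2 levels (probe set 10368343) of 7.72, 9.01 and 7.51 in PBS replicates 1 to 3 and of 7.51, 8.52 and 8.45 in rapamycin replicates 1 to 3. It was high in PBS replicate 2 and in rapamycin replicates 2 and 3, and low in the other mice of both groups. Within the PBS group alone the mice differed by 2.84-fold. The log2 change was 0.08 ± 0.43 (SE, limma adjusted p 0.926). Its sign turned with single arrays, from -0.21 without PBS replicate 3 to 0.55 without PBS replicate 2, and its interval, from 0.527-fold to 2.12-fold, holds both a fall and a rise of a size larger than those of Nos2 and Slc7a2. The SD of Arg1 within a group, pooled over both groups as a root mean square, was 0.70. This was the third largest of 13965 genes, where the median gene had 0.077. Cxcl13, a chemokine for B cells, and the stefin Stfa3 had larger ones (0.84 and 0.75); these were named after their values were seen.

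Arg2, the mitochondrial arginase, had log2 levels (probe set 10396831) of 8.50, 8.58 and 8.56 with PBS and of 8.71, 9.01 and 8.19 with rapamycin. The PBS mice were nearly equal (SD 0.04), and the rapamycin mice lay on both sides of them (SD 0.41), with replicates 1 and 2 above and replicate 3 below all 3. The log2 change was 0.09 ± 0.18 (SE, limma adjusted p 0.787) over all 6 arrays. It was 0.31 (0.0961) without rapamycin replicate 3 and -0.10 (0.707) without rapamycin replicate 2. Rapamycin replicate 3 also had the lowest level of the neutrophil marker list, 11.95, where the other 5 arrays lay between 12.03 and 12.10, and the part of this in the value of Arg2 was not tested.

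**Figure D2:**
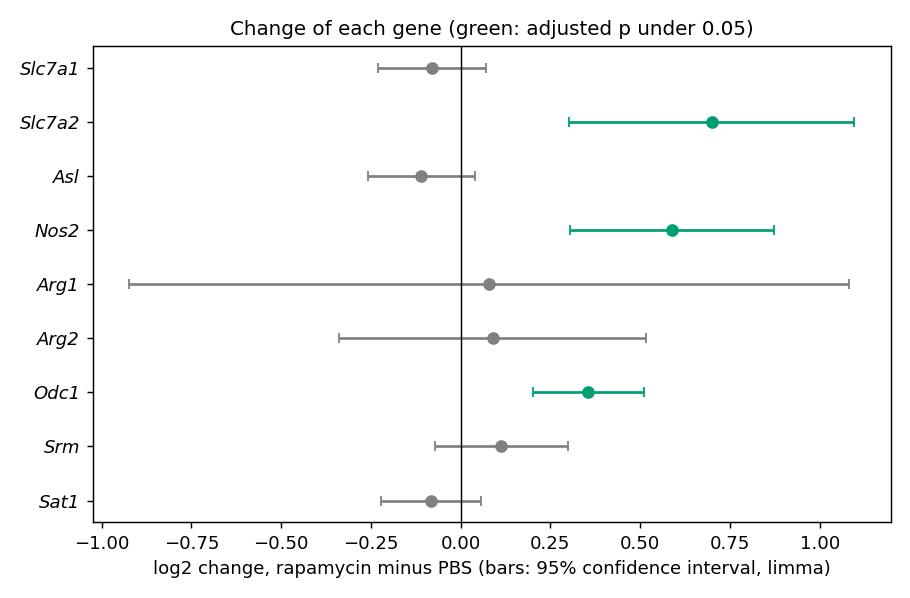
Log2 change, rapamycin minus PBS, of the 9 genes with the 95% confidence interval of the limma fit (horizontal axis), in green where the adjusted p was under 0.05. The intervals of Slc7a2, Nos2 and Odc1 lie above 0, and that of Arg1 is the widest of the 9, from -0.92 to 1.08.

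Odc1, ornithine decarboxylase, the rate-limiting first enzyme of polyamine synthesis, was read by 2 probe sets that did not move alike. On the brighter one (10582295) its log2 level was 7.36, 7.25 and 7.31 with PBS and 7.78, 7.56 and 7.64 with rapamycin, and all rapamycin mice lay above all PBS mice. This gave a log2 change of 0.36 ± 0.07 (SE, limma adjusted p 0.0201). On the other one (10394770) the log2 level was 7.25, 6.99 and 6.99 with PBS and 7.25, 7.08 and 7.09 with rapamycin, and the groups overlapped. Its log2 change was 0.06 ± 0.09 (SE), with a 95% confidence interval of -0.14 to 0.27. In the fit of all probe sets, of which 7.23% were called (3.06% higher), the limma adjusted p was 0.0257 for the first and 0.696 for the second. The mean of both gave a log2 change of 0.21 (limma adjusted p 0.107), so that the call of Odc1 rests on the choice of the probe set. The call of the brighter one was also lost without PBS replicates 1, 2 or 3 (limma adjusted p 0.0528, 0.0889 and 0.0722) and without rapamycin replicate 1 (0.0590).

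The difference between the 2 probe sets within an array, in which a shift of the whole array cancels, was 0.11, 0.26 and 0.32 with PBS and 0.53, 0.49 and 0.54 with rapamycin. It rose from 0.23 ± 0.11 to 0.52 ± 0.03 (log2 difference, mean ± SD, n = 3 each). An exact permutation test gave a 2-sided p of 0.1, the smallest that 3 against 3 arrays allow. The annotation lists the same Odc1 transcripts for both probe sets. Odc1 lies on chromosome 12 of GRCm38.p6. Probe sets of this array are numbered largely along the chromosomes, and for 10394770 the nearest 10 named probe sets on each side belong to genes of chromosome 12 in 17 of 20 cases. For 10582295, the one that rose, 20 of 20 belong to genes of chromosome 8 and 0 to chromosome 12. For the 8 other members at least 18 of 20 neighbours lay on the chromosome of the gene itself. Positions of single probes were not used here, and whether 10582295 reads the Odc1 locus, a copy elsewhere or both was not tested.

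**Figure D3:**
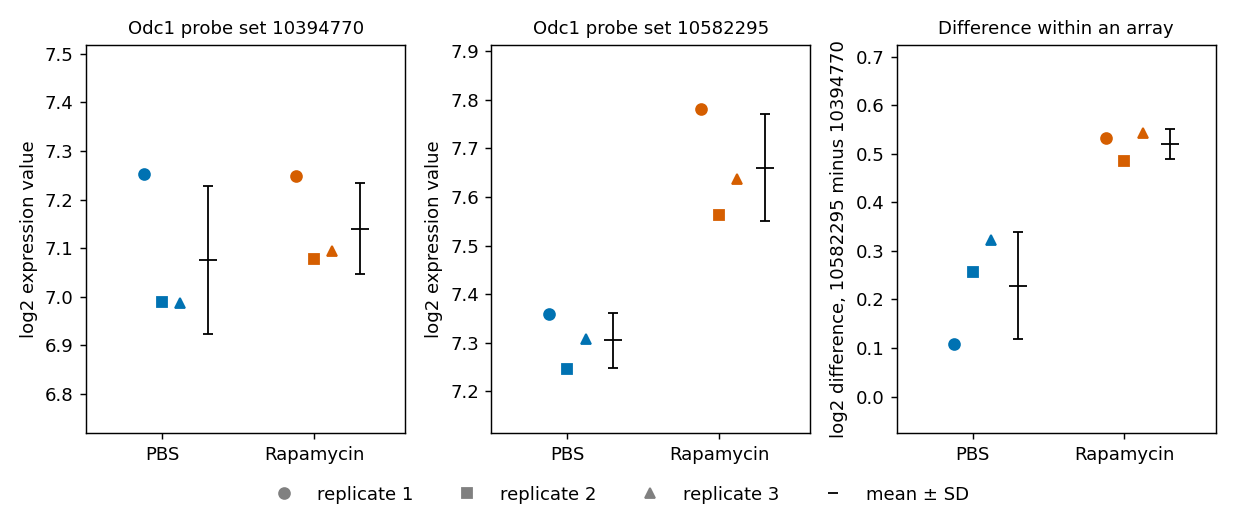
Log2 expression value of the 2 Odc1 probe sets and the log2 difference between them within each array (vertical axes, equal spans), for PBS in blue and rapamycin in orange, with symbols for the replicate number and bars for the mean ± SD (n = 3). Probe set 10394770 overlaps between the groups, whereas probe set 10582295 and the difference, 0.49 to 0.54 with rapamycin against 0.11 to 0.32 with PBS, do not.

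Odc1 is a textbook target of the transcription factor Myc, which binds the E-box CACGTG, and the DNA upstream of its start is shown because Myc rose in these samples (below). Of the 10 members, 4 (Ass1, Slc7a1, Odc1 and Sat1) were matched to a RefSeq promoter window of GRCm38.p6. The line gives the 250 bases before the Odc1 start at chr12:17544623-17544872, plus strand, 5′ to 3′, with matches to the GC box GGGCGG on either strand in capitals.
Odc1: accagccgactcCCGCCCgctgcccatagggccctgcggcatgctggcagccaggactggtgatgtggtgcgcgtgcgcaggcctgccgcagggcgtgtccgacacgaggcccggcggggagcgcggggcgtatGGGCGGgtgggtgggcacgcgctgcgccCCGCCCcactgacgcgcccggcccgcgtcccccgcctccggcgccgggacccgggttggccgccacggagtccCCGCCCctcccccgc
It held 4 GC boxes, which do not overlap, beside 2 upstream of Sat1, 1 upstream of Ass1, and 1 and 0 in the windows of Slc7a1. Of 32851 such windows of all genes 32.7% held at least 1, and how many held 4 was not counted. The E-box CACGTG had 0 matches in the windows of Odc1, Sat1 and Slc7a1 and 1 in that of Ass1, against 6.02% of all windows holding it. Neither TATAAA (12.4% of all windows) nor the ATF4 motif TGATGNAA (3.45%) was found upstream of Odc1 on either strand. These are matches of letters within the window, not tested binding sites. Sequence after the start was not searched, so a window without a match does not show that the gene lacks the motif.

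The later polyamine genes were not called. Srm, spermidine synthase, had log2 levels of 8.05, 7.87 and 7.90 with PBS and 8.18, 8.06 and 7.92 with rapamycin. The groups overlapped, at a log2 change of 0.11 ± 0.08 (SE, limma adjusted p 0.392) and an interval of 0.951-fold to 1.23-fold. Sat1, the acetyltransferase that starts the breakdown and export of polyamines, had log2 levels of 10.63, 10.79 and 10.64 with PBS and 10.59, 10.57 and 10.66 with rapamycin. Its log2 change was -0.08 ± 0.06 (SE, limma adjusted p 0.407), with an interval of 0.857-fold to 1.04-fold.

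Around these members, 86 further genes of the route and of its control were listed in 5 groups. Of these, 76 were measured and 66 tested, and 9 rose and 5 fell. That is 21.2% called, beside 11.3% of all genes tested. The group of regulators gave 7 and 2 of these calls (40.9% called), and the other groups had 30%, 14.3%, 0% and 0% called. All groups were listed with earlier results of these data known, so the share is no test of the route. The 9 and 5 calls became 0 and 0 without PBS replicate 2. The counts were 3 and 1 with PBS replicate 1, PBS replicate 3 or rapamycin replicate 2 left out. They were 3 and 0 with rapamycin replicate 1 left out, and 9 and 1 with rapamycin replicate 3 left out. Not all of these genes were called over all arrays. Without PBS replicate 1 the 1 lower gene was Prodh, which was not called over all arrays. Without rapamycin replicate 1 only 2 of the 3 higher genes were called higher over all arrays, and Pparg was gained. Without rapamycin replicate 3 this held for 6 of the 9 higher genes. With the array medians aligned the counts were 9 and 2, and Castor2, Enoph1 and Jak1 were no longer called.

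Of 10 tested genes of arginine supply and sensing 2 rose and 1 fell. Slc38a9, the lysosomal arginine sensor that signals to mTORC1, rose from a log2 level of 8.20 ± 0.07 to 8.54 ± 0.16 (mean ± SD, n = 3 each). The log2 change was 0.34 ± 0.08 (SE, limma adjusted p 0.0452) on its brighter probe set and 0.13 ± 0.07 on its other one. In the fit of all probe sets neither passed (limma adjusted p 0.0615 and 0.301). Slc66a1, which exports cationic amino acids from the lysosome, rose by 0.35 ± 0.08 (SE), and its values did not overlap between the groups. Castor2, of the family of cytosolic arginine sensors that restrain mTORC1, fell from 6.14 ± 0.03 to 5.93 ± 0.04, and its 2 probe sets gave log2 changes of -0.21 and -0.27. Slc7a7, the light chain of a basic amino acid exchanger, was not called at 0.23 ± 0.08 (SE, limma adjusted p 0.125). Leaving out rapamycin replicate 1 or either of PBS replicates 1 and 2 ended all 3 calls, at a limma adjusted p of 0.0643 to 0.158. With PBS replicate 3 left out Slc66a1 alone was called (0.0481), and with rapamycin replicate 2 left out Slc38a9 alone (0.0240). With rapamycin replicate 3 left out these 3 were not called (0.0609 to 0.110) and Slc7a7 was (0.0201). Cps1, Otc and Slc25a2, of the urea cycle or its transport, lay below the brightness threshold.

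Of 11 tested genes of nitric oxide synthesis and its cofactor tetrahydrobiopterin, 0 were called. Gch1, the rate-limiting enzyme for this cofactor, had log2 levels of 5.65, 5.60 and 5.47 with PBS and 5.95, 5.60 and 5.73 with rapamycin, at a log2 change of 0.19 ± 0.09 (SE, limma adjusted p 0.239). Spr, a later enzyme of that synthesis, stood at -0.11 ± 0.06. Prmt1, which methylates arginine in proteins, stood at -0.18 ± 0.08, and Nostrin, a trafficking partner of the endothelial synthase, at -0.20 ± 0.09. None of these 4 passed the test, and the median of the 11 was -0.047.

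Of 9 tested genes for other fates of arginine and ornithine 0 were called as well, and their median log2 change was -0.10. Prodh, proline dehydrogenase, stood at -0.37 ± 0.12 (SE, limma adjusted p 0.0850), with all rapamycin values below all PBS values, and was called without PBS replicate 1 (-0.49, adjusted p 0.0427) and with the replicate number as a block (0.0188). Pycrl, a pyrroline-5-carboxylate reductase, stood at -0.18 ± 0.05 (0.0596). Agmat stood at -0.13 ± 0.05 and Oat, ornithine aminotransferase, at -0.10 ± 0.04.

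Of 14 tested genes of polyamine interconversion and control 2 fell and 0 rose. Oaz2, an antizyme, which binds ornithine decarboxylase and sends it for degradation, had log2 levels of 7.08, 6.89 and 6.69 with PBS and 6.45, 6.43 and 6.33 with rapamycin. It fell by 0.48 ± 0.10 (SE, limma adjusted p 0.0246). Enoph1, of the methionine salvage that follows polyamine synthesis, fell by 0.25 ± 0.05 (SE, limma adjusted p 0.0289). Azin1, the antizyme inhibitor, which frees ornithine decarboxylase, stood at -0.18 ± 0.05 (0.0718), and Apip, also of methionine salvage, at 0.16 ± 0.06 (0.122). Oaz2 was called without PBS replicate 3 (limma adjusted p 0.0364) and lost without any other array (0.0552 to 0.101), and Enoph1 was lost in all 6 such fits (0.0501 to 0.102). The antizyme Oaz1, Sms and Amd1 were not analysed here.

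Of 22 tested regulators of Arg1, Nos2, Odc1 and Srm 7 rose and 2 fell, which is 40.9% called, beside 11.3% of all genes tested. The list was chosen with earlier results of these data known, so this share is no test of the regulators. Myc, a driver of Odc1 and of growth genes, rose from a log2 level of 8.02 ± 0.23 to 8.73 ± 0.19 (mean ± SD, n = 3 each), which is a change of 0.71 ± 0.13 (SE, limma adjusted p 0.0209). Myd88, the adaptor of Toll-like receptors upstream of Nos2, rose by 0.57 ± 0.07 (limma adjusted p 0.00754). Il4ra, a chain of the receptor for the Arg1 inducers interleukin 4 and interleukin 13, rose by 0.45 ± 0.06 (0.00855), while Arg1 itself was not called. Atf4, the transcription factor of the amino acid response, rose by 0.22 ± 0.04 (0.0230). The other calls were named after their values were seen. Tlr4, Irf1 and Epas1 were higher, with Epas1 just inside the threshold, and Jak1 and the Myc antagonist Mxd1 were lower. The 2 probe sets of Irf1 moved in opposite directions, by 0.35 on the brighter one and by -0.52 on the other (log2 change, limma adjusted p 0.0465 and 0.0148 over all probe sets). Stat6, Cebpb, Hif1a, Rela and Pparg were among the 13 not called. Without PBS replicate 2 all of Myc (limma adjusted p 0.0943), Myd88 (0.0504), Il4ra (0.0525) and Atf4 (0.0686) were lost. Myd88 and Il4ra passed without any other array, Myc without PBS replicate 1 or rapamycin replicate 3 only, and Atf4 without rapamycin replicate 3 only. The adjusted p was otherwise 0.0573 to 0.0826 for Myc and 0.0619 to 0.0779 for Atf4.

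**Figure D4:**
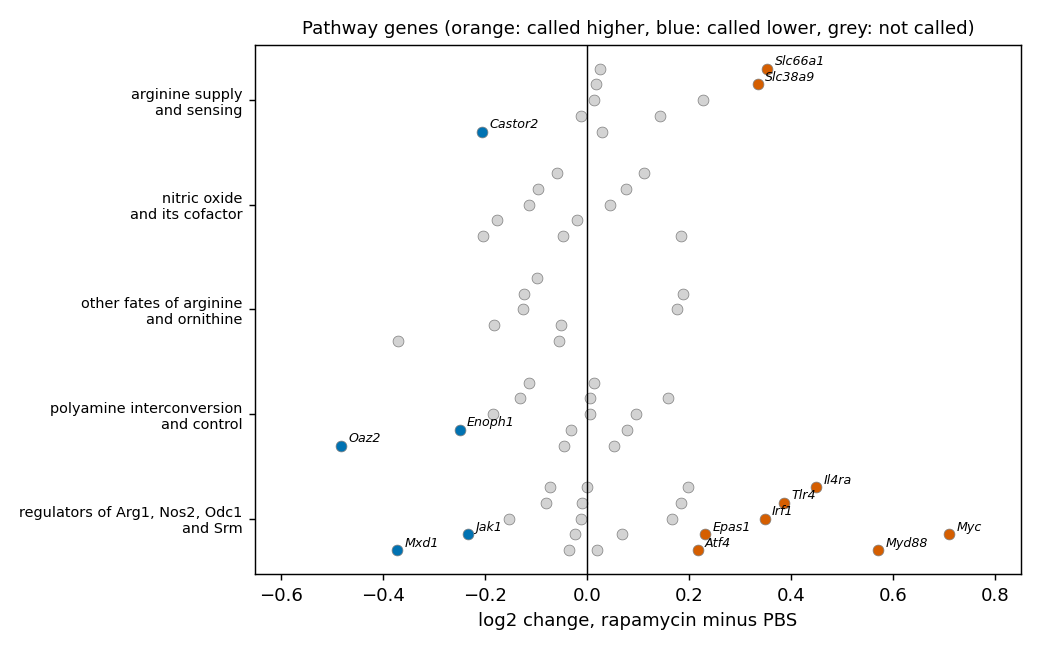
Log2 change, rapamycin minus PBS (horizontal axis), of the 66 further genes tested, 1 point per gene, in the 5 groups on the vertical axis. Orange points were called higher, blue ones lower and grey ones not called, with names for the called genes. The called points number 7 higher and 2 lower of 22 regulators, 2 and 1 of 10 supply and sensing genes, 0 and 2 of 14 polyamine genes, and 0 in the other groups, beside 11.3% of all genes called. Differences between the groups were not tested, and without PBS replicate 2 the counts are all 0.

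To see which other genes shared the unevenness of a member, the 3 genes with the smallest root mean square distance to it were found over the 6 arrays, after the mean of each gene was subtracted. The distances are descriptions of 6 arrays. Genes found this way were selected to resemble the member in these same arrays. Their order of the mice and their calls, also those without single arrays, therefore follow largely from the selection. They are no further support for the member. Closest to Arg1 were Ltc4s, the leukotriene C4 synthase (distance 0.34), Cd5l, a macrophage apoptosis inhibitor (0.34), and Pmp22, a membrane protein of myelin (0.40). These distances were not small beside the spread of Arg1 itself, 0.57 about its mean, so no gene followed Arg1 closely. All 3 were higher in PBS replicate 2 than in PBS replicates 1 and 3, and higher in rapamycin replicates 2 and 3 than in rapamycin replicate 1, as Arg1 was. Cd5l had log2 levels of 5.23, 5.72 and 5.11 with PBS and 5.08, 5.75 and 5.37 with rapamycin. The macrophage marker list, which holds Cd5l, did not have this order, with levels of 8.36, 8.30 and 8.02 with PBS and 8.24, 8.34 and 8.42 with rapamycin.

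The genes closest to Nos2 were Capns2, a calpain small subunit (distance 0.067), Myadm, a membrane protein of myeloid cells (0.090), and Dusp16, a phosphatase of MAP kinases (0.093), where the spread of Nos2 was 0.33. All of these were highest in rapamycin replicate 2, then in replicate 1, then in replicate 3, with the PBS mice lowest. Capns2 and Dusp16 were called higher (limma adjusted p 0.0308 and 0.0443) and Myadm was not (0.0630), although 5 of 15 alternatives called it, among them aligned array medians (0.0400) and leaving out rapamycin replicate 3 (0.0247). The genes closest to Arg2 were Isg20, an interferon-induced exonuclease (0.047), Hdc, which makes histamine from histidine (0.083), and Trim30d (0.084), where the spread of Arg2 was 0.24. They too were nearly equal in the PBS mice, highest in rapamycin replicate 2 and lowest in rapamycin replicate 3. Hdc had log2 levels of 11.18, 11.25 and 11.25 with PBS and 11.57, 11.62 and 10.98 with rapamycin, and without rapamycin replicate 3 it was called (0.37, limma adjusted p 0.0188), as was Isg20 (0.32, 0.0365). Nos2 and Arg2 thus had the same order of the 3 rapamycin mice.

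The genes closest to Slc7a2 were Ecm1, an extracellular matrix protein (0.11), Itga6, an integrin chain (0.15), and Trf, the iron carrier transferrin (0.15), where the spread of Slc7a2 was 0.41. Ecm1 rose by 0.82 ± 0.20 (log2 change ± SE, limma adjusted p 0.0403) and Trf by 0.69 ± 0.10 (0.0107), and Itga6 was not called (0.0776) except with the replicate number as a block (0.0180). As in Slc7a2, in each of these 3 genes PBS replicate 2 was the highest PBS mouse and rapamycin replicate 1 the lowest rapamycin mouse, an order that Arg1 also had. Ecm1 lost its call without any 1 array (0.0508 to 0.132), and Trf without PBS replicate 2 (0.0543) or PBS replicate 3 (0.0554). Capns2 was lost without PBS replicates 1, 2 or 3 or rapamycin replicate 1 (0.0936 to 0.117), and Dusp16 without these or rapamycin replicate 2 (0.0573 to 0.147).

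**Figure D5:**
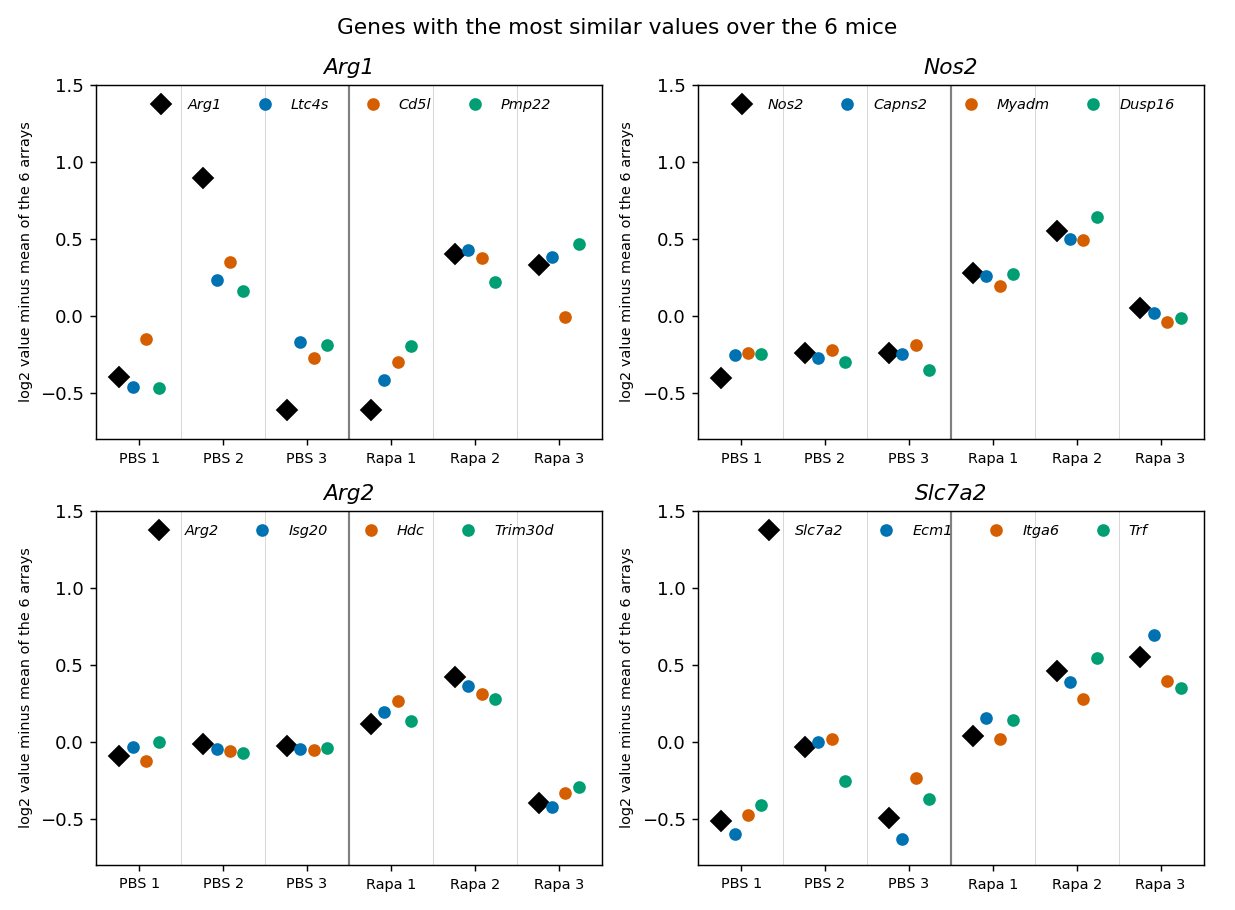
Log2 value minus the mean of the 6 arrays (vertical axis) in each mouse (horizontal axis, PBS left and rapamycin right of the dark line) for Arg1, Nos2, Arg2 and Slc7a2 (black diamonds) and the 3 genes with the smallest distance to each (coloured points). Points for Nos2 and Arg2 lie close to those of their neighbours, at distances of 0.047 to 0.093, and Arg1 in PBS replicate 2 lies far above its own.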

How the data were processed

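Total RNA of sorted spleen cells from 6 mice was hybridised to 1 array each. The authors deposited log2 expression for each probe set, made with RMA in Affymetrix Expression Console, per the submitters' processing notes, which name no versions. RMA makes the arrays' distributions of probe intensities equal, so a shift of most genes would be largely removed. The deposited probe set values were not exactly equal in distribution. With array medians aligned the median log2 change of all genes was 0.006 in place of -0.017. The values ran from 2.71 to 14.2 and were not normalized again. Arrays have no read depth, and the precision is set by their number, 3 in each group. Mice are biological replicates per the labels, and no scan date is given, so array batches were not tested.

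Of 35556 probe sets, 21789 had 1 gene symbol in GEO's platform annotation, and 21698 were matched by Entrez ID to RefSeq (GRCm38.p6). For each of 19938 genes the probe set with the highest mean was taken, and 5973 genes with a mean below 4.72, the 30th percentile over probe sets with a name, were set aside. Groups were compared with limma 3.58.1 (lmFit and eBayes, 2-sided) in R 4.3.3, with Benjamini-Hochberg adjustment over 13965 genes. The fit was tested on simulated data. The members and lists were chosen with earlier results of these data known. Named were the members, the 4 genes of each pathway list with the largest moderated statistic, and the 3 genes nearest to Arg1, Nos2, Arg2 and Slc7a2, passing over predicted genes, small RNAs and antigen receptor segments. Alternatives were no or a 50th percentile brightness filter, quantile normalization again, aligned array medians, averaging the probe sets of a gene, an intensity trend with robust estimation, array weights, an unmoderated fit, a replicate block and leaving out each array. Of 96 listed genes, those without a probe set of 1 symbol were not analysed here.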

Additional observations from a re-analysis of the deposited data

How the results depend on the processing

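Calls depended on each of the 3 arrays of a group, though a fit without one also has fewer samples. Leaving out 1 array gave 0 to 2 members called higher and 0 lower, 0 to 9 and 0 to 1 pathway genes higher and lower, 52 to 561 and 61 to 775 of all genes, and 0 to 1 Odc1 probe sets. The unmoderated fit called 0 members, 0 pathway genes in either direction, 0 Odc1 probe sets, and 29 genes higher and 57 lower. Without a brightness filter 5 pathway genes rose in place of 9, and with aligned medians 2 fell in place of 5. Outside the leave-one-out fits, Nos2 was lost in the unmoderated fit alone, Slc7a2 there, without a filter, with array weights and in the fit of all probe sets (limma adjusted p 0.0616), and Odc1 there and with the mean of its probe sets. Of 16 named genes called, 16 were lost without PBS replicate 2 and 0 changed sign under the 15 alternatives. Signs turned only in genes that were not called. Leave-one-out values were -0.21 to 0.55 for Arg1, -0.10 to 0.31 for Arg2, -0.13 to 0.23 for Cd5l, -0.076 to 0.32 for Isg20 and -0.044 to 0.24 for Trim30d, and array weights gave -0.16 for Arg1 and -0.039 for Cd5l. The cause was not tested. The replicate block called 3 members and 9 and 5 pathway genes, with 768 genes higher and 923 lower in all. It kept 9 of 9 higher and 4 of 5 lower pathway calls, lost Jak1 (limma adjusted p 0.0502), gained Prodh (0.0188), and among the other named genes gained Itga6 (0.0180) and Myadm (0.0459). The labels give no pairing, so the numbers were not taken to pair the mice. Same-numbered mice deviated together with correlations over genes of 0.26, 0.0100 and 0.046, and differently numbered ones with -0.19 to 0.14. These values do not settle whether the numbers pair the mice.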
